A study of Chlamydomonas reinhardtii with 24 samples.

Results

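A set of 12 nuclear genes of the unicellular green alga Chlamydomonas reinhardtii, among 14621 genes counted, had a moderate UV-B ratio in wild type and a much smaller one in the hy5 mutant. They were chosen by values measured in these same libraries. Counts were scaled to CPM (counts per 1000000 counts of the library), averaged over the 3 libraries of a group, and the log2 UV-B ratio of a genotype was taken as the log2 of its mean with UV-B over its mean without UV-B, after adding 0.5 CPM to each mean. A gene was kept when its wild-type mean with UV-B was 5 CPM or more, when its lowest wild-type library with UV-B lay above its highest wild-type library without UV-B, when its log2 UV-B ratio was from 1 to under 2 in wild type, and when its ratio in hy5 was at most 0.4 times the wild-type ratio. The first 2 criteria left 1083 genes, of which 362 had a moderate wild-type ratio, and the 12 genes are 3.31% of those 362. The other 350 moderate genes and 175 strong genes (a wild-type log2 ratio of 2 or more under the same criteria) serve as comparison sets. Since the 12 wild-type and hy5 libraries chose the genes, all values from them are descriptions without a test, and tests are given only for the co and uvr8 libraries.

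Polyadenylated RNA was sequenced with a stranded kit in 24 libraries, 3 for each of 8 groups. The hy5, co and uvr8 strains (library names LMJ.RY402.194448, LMJ.RY402.149321 and LMJ.RY40202.156289) are insertion mutants, 1 strain per gene, and they were compared with the strain CC5325 (WT), the background of all 3. The series text calls the hy5 gene CrBlz3 and the co gene CrCo. Each genotype received 1 h of UV-B at 0.2 mW cm-2 through a 311 nm filter, or had the UV-B removed by a 360 nm filter, in both cases in light of 20 µmol photons m-2 s-1. All cultures were grown in acetate medium and moved to minimal medium before the exposure. The labels do not say whether the 3 libraries of a group came from separate cultures, so p-values measure the spread between these libraries, which may be technical.

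UVR8 is the UV-B photoreceptor: absorption splits its dimer into monomers, which bind the E3 ubiquitin ligase COP1 and its partner SPA1 and thereby stop the degradation of transcription factors. In plants the bZIP factor HY5 is a main target of this ligase and activates many UV-B genes, and CONSTANS (CO) is a B-box transcription factor under the same control. In Chlamydomonas the pathway is known for switching on photoprotection, including the PSBS and LHCSR proteins, which are linked to the dissipation of excess light energy in photosystem II. The annotation table used here gives no gene name for any locus, so the 12 genes are called by locus and no role is given to any of them. Names of other genes (HY5, CO, UVR8, PSBS2 and the like) rest on locus numbers from the Chlamydomonas literature that could not be checked in the annotation table.

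Library totals were 19267716 to 27686700 counts. HY5 (Cre06.g310500) ranged over the 6 hy5 libraries from 0.711 to 1.19 CPM, against 102 to 152 CPM in WT libraries with UV-B and 6.37 to 9.59 CPM in those without. CO (Cre06.g278159) had 8.19 to 11.7 CPM over the 6 co libraries, against 520.2 to 707 CPM over the 6 WT libraries. UVR8 (Cre05.g230600) without UV-B had 23.6 to 24.2 CPM in uvr8, against 30.8 to 41.3 CPM in WT, with no overlap. With UV-B it had 23.0 to 28.5 CPM in uvr8, against 22.9 to 24.5 CPM in WT. The transcript was thus still present in uvr8, and its level is a weak check of the uvr8 label. By library totals it was lower than in WT only without UV-B. The first WT library with UV-B stands apart: its scaling factor by TMM (trimmed mean of M-values, which corrects for differences in RNA composition) was 0.670, the lowest of all libraries, where the others had 0.828 to 1.199. Over all 13613 genes with enough counts to test, the median log2 UV-B ratio was -0.08 in hy5 and -0.22 in WT by library totals, and -0.002 in hy5 and 0.009 in WT after TMM scaling, so every WT ratio below is about 0.2 lower than it would be with TMM.

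By choice, the means of the 12 genes with and without UV-B differed less in hy5 than in WT, and the WT libraries with UV-B were all above those without. The log2 UV-B ratio ranged over the genes from -0.10 to 0.57 with a median of 0.29 in hy5, against 1.01 to 2.00 with a median of 1.49 in WT. In the other 350 moderate genes the medians were 1.41 in hy5 and 1.36 in WT, and 284 of them kept a hy5 ratio of at least 0.8 times that of WT. A small ratio in hy5 was thus uncommon among moderate genes, and the 12 genes lie at the low end of a range that reaches 1.54 times the WT ratio. The lowest ratios to WT were those of Cre01.g016800 and Cre13.g580000, at -0.06 each, followed by Cre13.g579450 at 0.05 and Cre16.g671350 at 0.10. The choice by thresholds is close at several edges. The last gene inside the hy5 threshold, Cre03.g160250, had 0.389 times the WT ratio and the first outside, Cre09.g400701, had 0.403 times. Cre11.g467620 was just inside the lower bound with a WT log2 ratio of 1.01 and Cre07.g332750 just outside with 0.91, and at the upper bound Cre13.g579450 had 2.00 and Cre07.g318300, outside, 2.13. At the level bound Cre01.g016800 had 5.08 CPM, and Cre08.g364200, outside, had 3.63 CPM. Cre13.g580000 kept its groups apart by little, with a lowest WT library of 91.4 CPM with UV-B and a highest of 88.9 CPM without UV-B, whereas Cre14.g616000, outside, had 3.20 and 3.34 CPM. The rule without the no-overlap criterion would add 17 genes. With TMM-scaled CPM 34 genes met the rule, 11 of the 12 among them, and without the first WT library with UV-B 74 genes met it, 9 of the 12 among them.

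**Figure D1:**
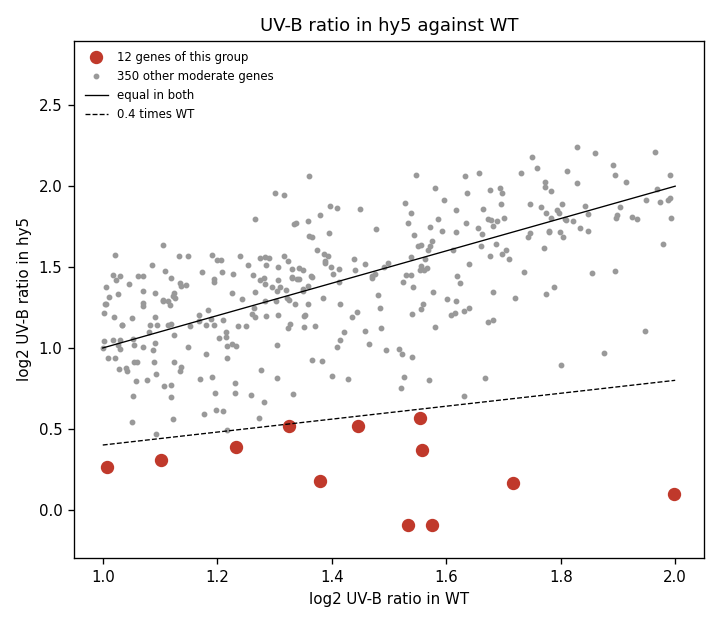
The log2 UV-B ratio in hy5 (vertical axis) against WT (horizontal axis) for the 12 genes (large red points) and the 350 other moderate genes (small grey points), with a solid line where both are equal and a dashed line at 0.4 times the WT ratio. The 12 genes lie under the dashed line by choice, at hy5 log2 ratios of -0.10 to 0.57, and most other moderate genes scatter around the solid line.

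For most of the 12 genes the level without UV-B was higher in hy5 than in WT, and for most the mean with UV-B was also lower in hy5. Without UV-B, 10 of 12 genes had a higher mean in hy5 than in WT, and the log2 of hy5 over WT had a median of 1.15 (from -0.59 to 1.72), against 0.14 over all tested genes and 0.07 over the other moderate genes. With UV-B, 8 of 12 had a lower mean in hy5, with a median log2 of -0.18 (from -1.43 to 0.91), against 0.29 over all tested genes and 0.08 over the other moderate genes. This median with UV-B depends on the processing: it was -0.52 with TMM scaling (10 of 12 genes lower, and a median of -0.04 over all tested genes), -0.40 without the first WT library with UV-B (10 of 12 lower), and 0.09 without the third WT library with UV-B (5 of 12 lower). Without UV-B the hy5 libraries lay wholly above the WT libraries in 7 of 12 genes, where 19.9% of all tested genes and 41 of the other 350 moderate genes were so. With UV-B the hy5 libraries lay wholly below the WT libraries in 2 of 12 genes (2.47% of all tested genes, 19 of 350) and wholly above them in 1 of 12 (28.6% of all tested genes, 40 of 350). All these counts rest on contrasts the rule used, and nothing is read from them beyond the description. The difference of the log2 UV-B ratios of WT and hy5 splits exactly into a part without UV-B and a part with UV-B, and the part without UV-B was over 50% of it in 9 of 12 genes and over 100% in 4, with a median of 85.1%. With TMM scaling the part was over 50% in 8 genes, with a median of 69.8%, and hy5 was above WT without UV-B in the same 10 genes, with a median log2 of 0.97. The direction with UV-B depends on the scaling in 2 genes: Cre13.g580000 and Cre01.g016350 had a log2 of hy5 over WT of 0.05 and 0.07 by library totals and -0.28 and -0.26 with TMM. Leaving out any 1 WT or hy5 library, or all libraries of 1 replicate number, left 10 or 11 genes with hy5 above WT without UV-B. These counts keep the 12 genes as chosen from all libraries, so they do not check the choice. When genes were chosen again without numbers 1, 2 and 3, hy5 was above WT without UV-B in the left-out libraries for 26 of 30, 13 of 54 and 16 of 19 genes.

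**Figure D2:**
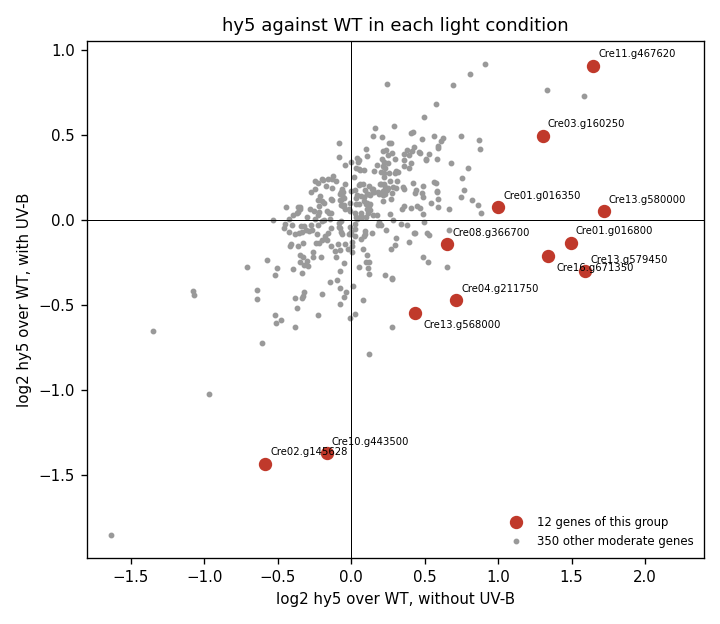
The log2 of hy5 over WT with UV-B (vertical axis) against the same without UV-B (horizontal axis), with 0.5 CPM added to each mean, for the 12 genes (large red points, with loci) and the 350 other moderate genes (small grey points). Right of 0 lie 10 of the 12, at 0.44 to 1.72, and Cre02.g145628 and Cre10.g443500 lie far below 0 with UV-B, at -1.43 and -1.37.

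Among the 10 genes with hy5 above WT without UV-B are Cre13.g579450 and Cre13.g580000 on chromosome 13, with 14 loci between them in the annotation table. Cre13.g579450 had 258, 398 and 749.7 CPM with UV-B and 536, 311 and 463 CPM without UV-B in hy5 (replicates 1, 2 and 3), against 284, 561 and 888 CPM with UV-B and 47.1, 199 and 187 CPM without UV-B in WT. The hy5 libraries without UV-B all lay above the WT libraries without UV-B, while those with UV-B overlapped. Its hy5 means were 468 ± 254 CPM with UV-B and 437 ± 115 CPM without UV-B, and its WT means 578 ± 302 CPM with UV-B and 144 ± 84.3 CPM without UV-B (SD, n = 3 each), which put 84.1% of the difference of ratios on the side without UV-B (69.7% with TMM scaling). Cre13.g580000 had 129, 192 and 260.2 CPM with UV-B and 169.6, 194 and 258 CPM without UV-B in hy5, against 91.4, 168 and 303 CPM with UV-B and 17.1, 88.9 and 81.7 CPM without UV-B in WT. In hy5 the libraries with and without UV-B overlapped almost fully, and the hy5 libraries without UV-B were each above all WT libraries without UV-B. The first WT library without UV-B was the low one in both genes, at 47.1 and 17.1 CPM.

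Both genes just named, with Cre16.g671350 and Cre01.g016800, had the largest differences between the WT and hy5 ratios, and in Cre13.g579450, Cre16.g671350 and Cre01.g016800 the no-UV-B side made up 84.1%, 86.2% and 91.8% of it. With TMM scaling these shares were 69.7%, 69.8% and 72.5%. Cre16.g671350 had 5.95, 5.63 and 6.33 CPM with UV-B and 5.42, 6.49 and 3.89 CPM without UV-B in hy5, against 3.54, 7.64 and 9.82 CPM with UV-B and 0.834, 3.17 and 1.34 CPM without UV-B in WT. Its hy5 libraries without UV-B were all above those of WT, and those with UV-B lay inside the WT range. Cre01.g016800 had 4.26, 4.86 and 4.65 CPM with UV-B and 3.60, 5.96 and 5.24 CPM without UV-B in hy5, against 5.98, 2.33 and 6.94 CPM with UV-B and 0.667, 1.73 and 1.89 CPM without UV-B in WT. The WT range with UV-B, 2.33 to 6.94 CPM, encloses every hy5 library of that gene, so the difference between genotypes is seen without UV-B.

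In 2 genes the hy5 mean was also above WT with UV-B both by library totals and with TMM scaling. Cre11.g467620 had 13.4, 10.7 and 10.3 CPM with UV-B and 7.82, 10.1 and 10.4 CPM without UV-B in hy5, against 3.77, 6.64 and 7.22 CPM with UV-B and 2.54, 2.197 and 3.27 CPM without UV-B in WT. All hy5 libraries lay above all WT libraries in either light condition, and this was the only one of the 12 with that order with UV-B. Cre03.g160250 had 6.17, 9.95 and 8.84 CPM with UV-B and 3.69, 7.19 and 6.12 CPM without UV-B in hy5, against 3.54, 4.18 and 9.54 CPM with UV-B and 2.25, 1.48 and 2.26 CPM without UV-B in WT. Its hy5 libraries with UV-B overlapped those of WT, since the third WT library reached 9.54 CPM. Cre01.g016350 had 29.4, 30.3 and 24.01 CPM with UV-B and 14.8, 23.9 and 19.3 CPM without UV-B in hy5, against 17.6, 34.5 and 27.2 CPM with UV-B and 7.59, 8.83 and 11.8 CPM without UV-B in WT. This was the only one of the 12 genes whose hy5 libraries with UV-B were all above those without it. The same held for 11.2% of all tested genes and for 330 of the other 350 moderate genes. The rule split the moderate genes by their hy5 ratio, so nothing is read from this count.

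In 3 further genes the libraries of hy5 and WT overlapped in both light conditions. Cre04.g211750 had 33.8, 17.9 and 28.0 CPM with UV-B and 31.5, 7.41 and 22.4 CPM without UV-B in hy5, against 40.1, 24.6 and 46.4 CPM with UV-B and 15.5, 7.69 and 13.5 CPM without UV-B in WT. The second replicate was the lowest in all 4 of these groups, and 60.2% of the difference of ratios lay without UV-B by library totals but 38.2% with TMM scaling. Cre08.g366700 had 5.47, 8.82 and 6.06 CPM with UV-B and 7.06, 5.12 and 3.996 CPM without UV-B in hy5, against 4.57, 10.4 and 7.63 CPM with UV-B and 4.25, 3.63 and 1.85 CPM without UV-B in WT. Its WT groups were only just apart, at 4.57 and 4.25 CPM. Cre13.g568000 had 6.39, 9.004 and 10.8 CPM with UV-B and 7.42, 4.37 and 5.35 CPM without UV-B in hy5, against 9.68, 12.6 and 16.6 CPM with UV-B and 3.67, 4.48 and 4.11 CPM without UV-B in WT. For this gene 44.4% of the difference of ratios lay without UV-B (23.6% with TMM scaling), so that the part with UV-B was the larger one, and the hy5 level with UV-B was lower in the mean, at 8.71 ± 2.197 CPM, against 12.96 ± 3.46 CPM in WT (SD, n = 3 each), with groups that overlap.

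In the remaining 2 genes the hy5 mean was below WT in both light conditions, and the difference was larger with UV-B. Cre10.g443500 had 3.34, 7.25 and 8.38 CPM with UV-B and 5.91, 4.28 and 6.38 CPM without UV-B in hy5, against 10.9, 16.8 and 23.6 CPM with UV-B and 3.17, 8.87 and 6.75 CPM without UV-B in WT. Every hy5 library with UV-B lay below every WT library with UV-B, and the libraries without UV-B overlapped. Cre02.g145628 had 3.30, 1.85 and 4.51 CPM with UV-B and 4.71, 0.706 and 1.61 CPM without UV-B in hy5, against 7.51, 5.56 and 15.5 CPM with UV-B and 3.25, 4.44 and 3.61 CPM without UV-B in WT. Here too all hy5 libraries with UV-B were below all WT libraries with UV-B, and the mean without UV-B was lower in hy5 as well, at 2.34 ± 2.10 CPM, against 3.76 ± 0.608 CPM in WT (SD, n = 3 each). A smaller UV-B ratio in hy5 therefore holds for all 12 genes by choice, a lower hy5 mean with UV-B for 8 of them, and hy5 libraries with UV-B wholly below those of WT for these 2.

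**Figure D3:**
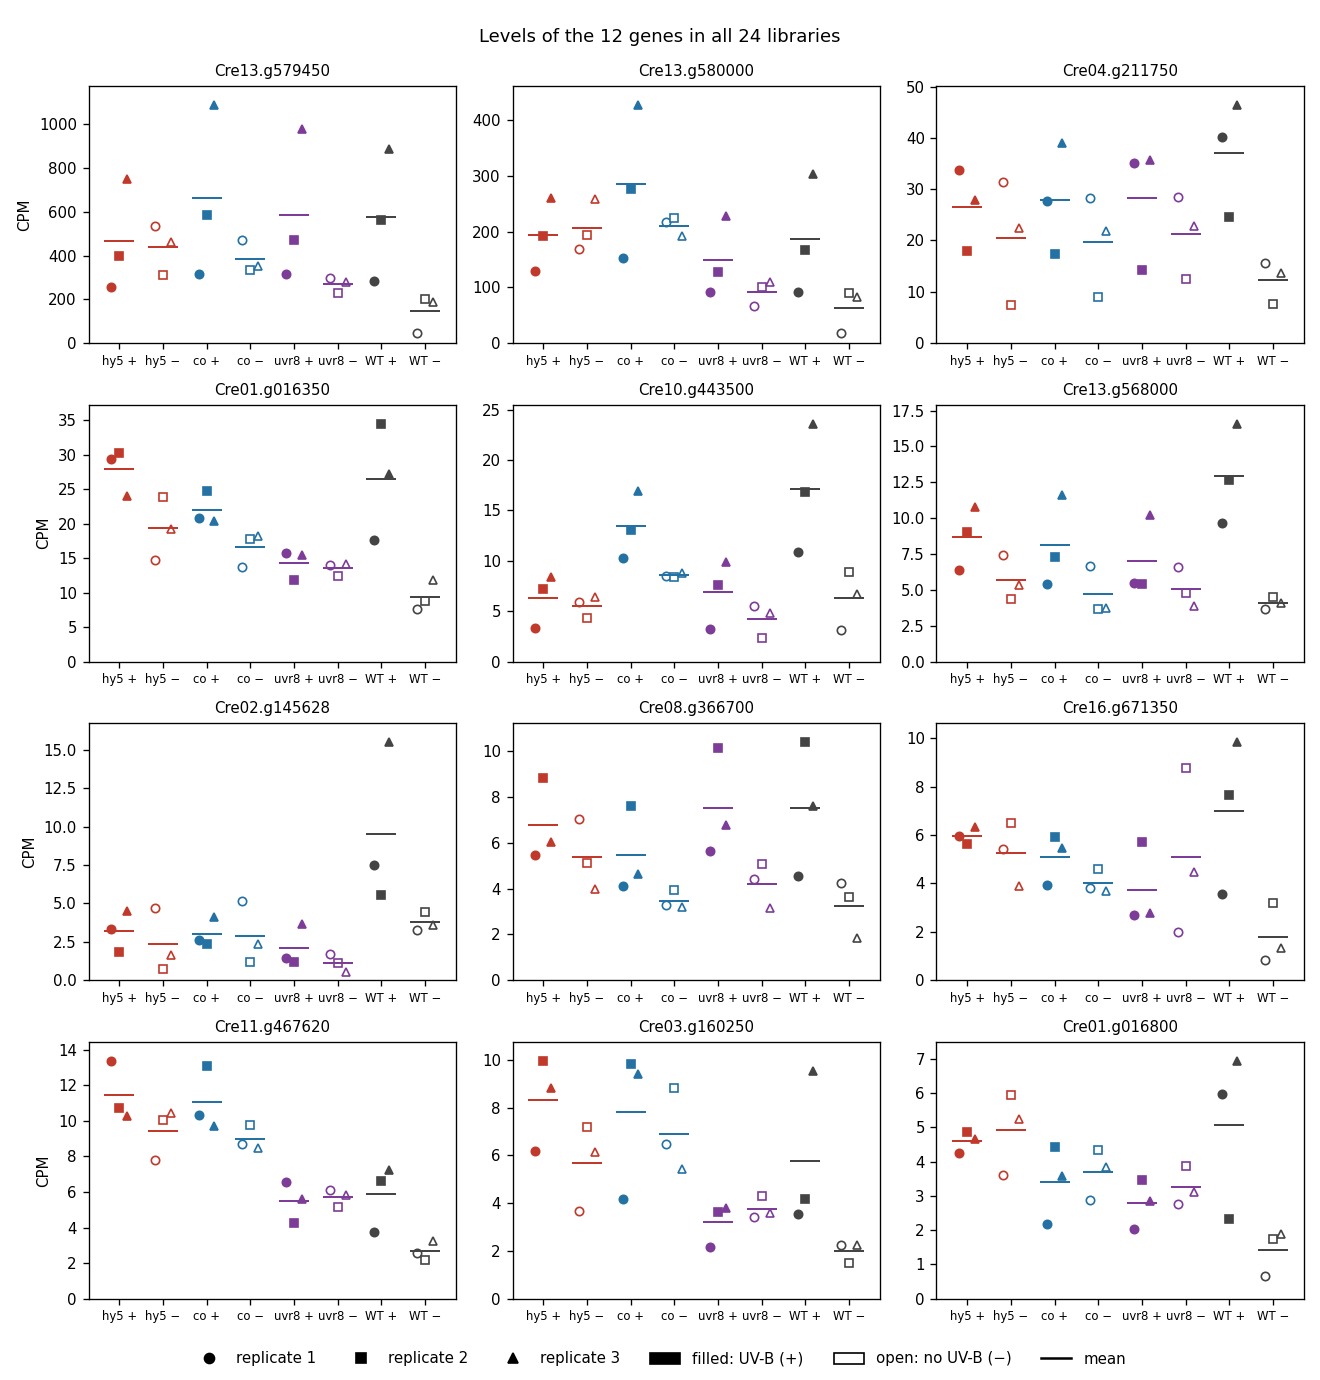
Level of each of the 12 genes in CPM (linear axis from 0) in all 24 libraries, with hy5, co, uvr8 and WT from left to right, each with UV-B (+, filled) left of no UV-B (−, open). Marker shapes are replicate numbers and bars are means of 3 libraries. The WT group without UV-B has the lowest mean in 10 of the 12 panels.

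The co and uvr8 libraries were not used to choose the genes. UV-B effects in them were tested by edgeR's quasi-likelihood test over all 13613 genes with Benjamini-Hochberg adjustment, called under 0.05. None of the 12 genes was called in co, where 234 genes in all (1.72%) were called and 90 of the other 350 moderate genes were called upward. In co, 2 of the 12 had an unadjusted p under 0.05 (1164 of all genes), and DESeq2 called 0 of the 12 and 360 of all genes. Of the fitted log2 changes in co, 11 of 12 were positive, with a median of 0.45 (from -0.10 to 0.79). In the other moderate genes the median was 0.70 in the same contrast. The median of the 12 genes was 0.80 without all libraries of replicate number 1 and 0.25 without those of number 3, and the median of the other moderate genes was not recomputed there. None of the 12 was called in uvr8 either, where no gene in all (0.0%) was called, although 1209 genes had an unadjusted p under 0.05. In uvr8, 1 of the 12 had an unadjusted p under 0.05 and DESeq2 called 0 of the 12 and 14 of all genes. The fitted log2 changes in uvr8 were positive in 8 of 12, with a median of 0.37 (from -0.51 to 1.03), against a median of 0.01 in the other moderate genes. Without all libraries of number 3 the median of the 12 genes in uvr8 was -0.04. The difference of the UV-B effect between co and uvr8 was called for none of the 12 (77 genes in all, 0.566%). For this difference 0 of the 12 had an unadjusted p under 0.05 (746 of all genes), and DESeq2 called 0 (140 of all genes). Its median was 0.18, against 0.64 in the other moderate genes, of which 24 were called. Without all libraries of replicate number 1, Cre13.g568000 was called in co at a log2 change of 1.395 (adjusted p = 0.0338, edgeR) and Cre10.g443500 in uvr8 at 1.199 (adjusted p = 0.0488, edgeR), where 771 and 1581 genes in all were called. The intervals are wide: standard errors were 0.19 to 0.67, so that a change of the WT size is not always outside them. Against WT ratios with TMM scaling, the upper 95% end reached the WT size in co only in Cre08.g366700, at 1.35 against 1.29. In uvr8 it did so only in that gene, at 1.44, and in Cre02.g145628, at 2.22 against 1.49. The WT ratios chose the genes, so this is a description without a test.

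The genes with the smallest p in co show how the libraries spread. Cre13.g568000 had 5.42, 7.27 and 11.6 CPM with UV-B and 6.68, 3.65 and 3.76 CPM without UV-B in co, against 5.46, 5.37 and 10.2 CPM with UV-B and 6.57, 4.79 and 3.88 CPM without UV-B in uvr8. In both mutants the third library with UV-B was the high one and the first without UV-B was high as well, so the groups overlapped. Its log2 change in co was 0.79 ± 0.34 (SE; adjusted p = 0.464, edgeR), and in uvr8 0.38 ± 0.34 (adjusted p = 0.737, edgeR). Cre01.g016350 had 20.8, 24.8 and 20.4 CPM with UV-B and 13.7, 17.7 and 18.2 CPM without UV-B in co, against 15.7, 11.8 and 15.5 CPM with UV-B and 14.0, 12.4 and 14.2 CPM without UV-B in uvr8. The co libraries with UV-B were all above those without it, the uvr8 libraries overlapped, and the edgeR changes were 0.44 ± 0.19 (adjusted p = 0.479) in co and 0.03 ± 0.19 (adjusted p = 0.973) in uvr8. Cre08.g366700 followed in co at 0.66 ± 0.33 (adjusted p = 0.615, edgeR), with 0.75 ± 0.33 (adjusted p = 0.546, edgeR) in uvr8. Its libraries did not overlap in either mutant: 4.12, 7.60 and 4.66 CPM with UV-B, against 3.27, 3.96 and 3.21 CPM without UV-B in co, and 5.67, 10.1 and 6.78 CPM with UV-B, against 4.41, 5.07 and 3.16 CPM without UV-B in uvr8.

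By the same count of groups that do not overlap, 3 of 12 genes were higher with UV-B in co (8.47% of all tested genes, 252 of the other 350 moderate genes). In uvr8, 2 of 12 were higher with UV-B (8.87% of all tested genes, 33 of 350). The members that stood apart were Cre01.g016350, Cre10.g443500 and Cre08.g366700 in co, and Cre13.g579450 and Cre08.g366700 in uvr8. Cre13.g579450 had 314, 587 and 1088 CPM with UV-B and 473, 332 and 350.3 CPM without UV-B in co, against 315, 469 and 979 CPM with UV-B and 297, 229.5 and 280.1 CPM without UV-B in uvr8. The uvr8 libraries did not overlap and the co libraries did, through the low first co library with UV-B. The edgeR change of this gene was 0.79 ± 0.51 in co (adjusted p = 0.8) and 1.03 ± 0.51 in uvr8 (adjusted p = 0.576). The 95% interval of its change in uvr8 reached from -0.04 to 2.10. Cre10.g443500 had 10.3, 13.1 and 17.0 CPM with UV-B and 8.54, 8.43 and 8.81 CPM without UV-B in co, a log2 change of 0.67 ± 0.39 (adjusted p = 0.729, edgeR).

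Levels were also compared directly between co and uvr8. With UV-B, Cre11.g467620 was the 1 gene of the 12 called, higher in co, where 689 genes in all (5.06%) were called and 127 of the other 350 moderate genes were called higher in co. It had 10.3, 13.1 and 9.73 CPM in co with UV-B, against 6.54, 4.26 and 5.60 CPM in uvr8 with UV-B. The groups did not overlap, and the log2 difference was 0.86 ± 0.21 (SE; adjusted p = 0.0197, edgeR). Replicate numbers paired the co and uvr8 libraries in this contrast. With the number as a block 2 of 12 genes were called, where 1672 of 13613 genes in all were called. These 2 were Cre11.g467620 at 0.88 (adjusted p = 0.00788, edgeR) and Cre03.g160250 at 1.13 (adjusted p = 0.0217, edgeR). Without the block Cre03.g160250 differed by 1.16 ± 0.35 (adjusted p = 0.0618, edgeR), with 4.19, 9.84 and 9.39 CPM in co with UV-B, against 2.17, 3.61 and 3.81 CPM in uvr8 with UV-B. The call of Cre11.g467620 is lost without replicate 2 of co or of uvr8, without replicate 3 of uvr8, or when only these 6 libraries are fitted (adjusted p = 0.0835, 0.116, 0.0601 and 0.187, edgeR), and also without all libraries of number 2 or of number 3 (adjusted p = 0.398 and 0.315, edgeR). Without UV-B none of the 12 was called between co and uvr8 by edgeR (836 genes in all, 6.14%). Of the 12, 1 had an unadjusted p under 0.05 (2943 of all genes), and DESeq2 called 0 (1425 of all genes). With the number as a block 1 of 12 was called, where 2462 of 13613 genes in all were called. That gene was Cre13.g580000, higher in co at 1.09 (adjusted p = 0.0258, edgeR). It had 217, 224 and 192 CPM in co without UV-B, against 65.6, 101 and 109.5 CPM in uvr8 without UV-B, and its libraries did not overlap.

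Without UV-B the levels in co and uvr8 also lay above WT in most of the 12 genes. These values share the WT libraries that the rule used and that hy5 was set against, and no likeness between the mutants is drawn from them. The co libraries without UV-B were all above those of WT in 7 of 12 genes (25.2% of all tested genes, 74 of the other 350 moderate genes), and the uvr8 libraries in 5 of 12 (11.6% of all tested genes, 22 of 350). The median log2 over WT without UV-B was 0.89 in co and 0.66 in uvr8 over the 12 genes, against 0.20 and 0.02 over all tested genes. Of the 8 groups, the WT group without UV-B had the lowest mean in 10 of 12 genes, which was so for 11.7% of all tested genes and for 109 of the other 350 moderate genes. The exceptions were Cre10.g443500 and Cre02.g145628, whose lowest group was uvr8 without UV-B. A rule that asks for a high ratio in WT favours genes with a low WT level without UV-B, so this order is in part fixed by the choice. The group with the highest mean by library totals differed more between genes: WT with UV-B in 7 genes, hy5 with UV-B in 3 (Cre01.g016350, Cre11.g467620 and Cre03.g160250) and co with UV-B in the 2 chromosome 13 genes Cre13.g579450 and Cre13.g580000. With TMM scaling WT with UV-B had the highest mean in Cre13.g579450 and Cre01.g016350 as well.

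The 12 genes had a wide spread between libraries of a group. Their median coefficient of variation was 25.8% in hy5 and 42.1% in WT with UV-B, against 13.6% and 15.8% for the other moderate genes and 19.6% and 25.7% for all tested genes. The median WT mean with UV-B was 11.2 CPM for the 12 genes, against 37.0 CPM for the other moderate genes and 10.6 CPM for all tested genes. The order of the libraries was uneven over replicate numbers. The third WT library with UV-B was the highest of its group in 10 of 12 genes, where it was the highest for 35.6% of all tested genes, and the first was the lowest in 9 of 12, against 63.1%. In uvr8 with UV-B the third library was the highest in 7 of 12 genes (36.3% of all tested genes). The log2 UV-B ratio taken within a replicate number had a median over the 12 genes of -0.05, 0.40 and 0.43 in hy5 for numbers 1, 2 and 3. It was -0.15, 0.54 and 0.71 in co, 0.09, 0.11 and 0.80 in uvr8, and 1.32, 1.32 and 1.83 in WT. The medians of number 1 were thus near 0 in all 3 mutants, that of number 2 was near 0 in uvr8 as well, and those of number 3 were the highest in each genotype. Replicate numbers did not pair the libraries with and without UV-B in co or uvr8, and pairing was not examined in hy5 or WT. A ratio within a number thus joins libraries that share no more than their number by label, and it is a description. The other moderate genes had 1.44, 1.36 and 1.45 in hy5 and 1.33, 1.39 and 1.47 in WT, with no such step.

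**Figure D4:**
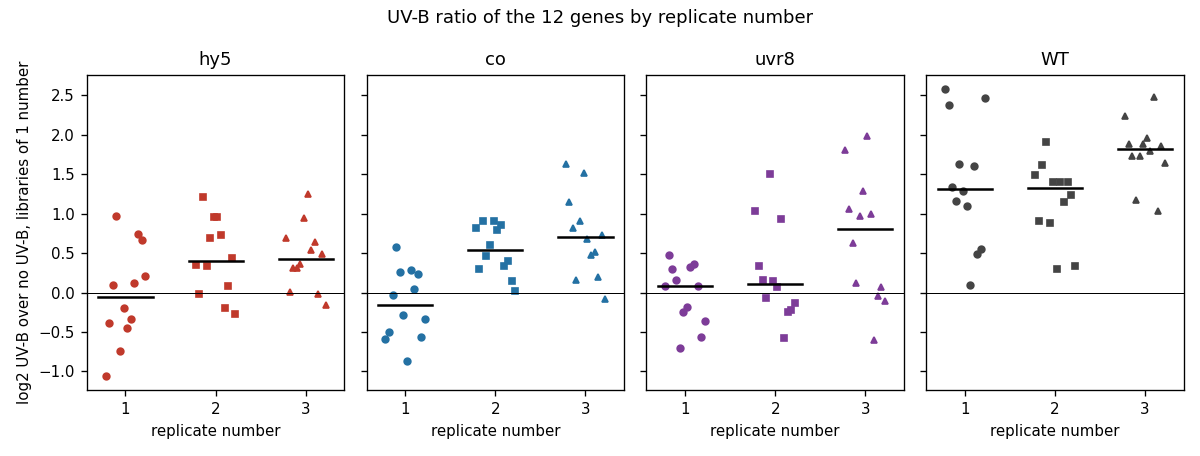
The log2 UV-B ratio of each of the 12 genes within libraries of 1 replicate number (points), with the median over the genes (bars), in hy5, co, uvr8 and WT. Numbers did not pair these libraries in co or uvr8, and pairing was not examined in hy5 or WT. All WT points lie above 0 by choice, and the medians of number 3 are the highest in each panel, at 0.43 in hy5, 0.71 in co, 0.80 in uvr8 and 1.83 in WT.

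The rule was also applied with 2 replicate numbers, and the ratios were measured in the number left out. The measured libraries took no part in that choice. Whether they are independent of the choosing libraries is not known, since the labels do not say that the cultures were separate. Chosen without number 1, 30 genes met the rule, and in the libraries of number 1 their median log2 ratio was 0.02 in hy5, against 0.73 in WT. That WT value, by library totals, includes the first WT library with UV-B, whose TMM factor was 0.670. Without number 3, 19 genes were chosen, with 0.74 in hy5, against 1.54 in WT. Without number 2, 54 genes were chosen, and in its libraries the medians were -0.18 in hy5 and -0.05 in WT, near 0 in both genotypes. The other moderate genes chosen in the same way had 1.12, 1.36 and 1.44 in hy5, against 1.14, 1.36 and 1.45 in WT, in numbers 1, 2 and 3. The hy5 ratio was below the WT ratio in 22 of 30, 36 of 54 and 14 of 19 of the chosen genes, and in 234 of 467, 154 of 323 and 165 of 348 of the other moderate genes chosen in the same way. These are counts of genes, not of replicates, and they are a description without a test. The higher level without UV-B in hy5 also varied: the median log2 of hy5 over WT in the held-out libraries was 0.90 in number 1 and 0.39 in number 3, but -0.63 in number 2. Of the 12 genes, 8, 6 and 7 were chosen again without numbers 1, 2 and 3. Cre13.g580000 and Cre10.g443500 met the rule when any 1 of the 12 WT and hy5 libraries was left out, and the other 10 in 7 to 11 of those 12 cases.

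The 12 genes lie on 9 chromosomes, with 3 on chromosome 13 and 2 on chromosome 1, by their order in the RefSeq annotation of assembly v5.5. The counts use annotation version 6.1, so no coordinates are given. Of the 24 nearest genes with a value, 1 on each side of each member, only 1 had a WT log2 UV-B ratio of 1 or more, and the median was -0.05. That gene, beside Cre01.g016800, is Cre01.g016750, PSBS2, which encodes one of the PSBS proteins named above for photoprotection. The hy5 libraries with UV-B held 343, 436 and 446 CPM of PSBS2, against 374, 498 and 502 CPM in the WT libraries with UV-B, and no library of either genotype without UV-B was above 3.93 CPM. Its UV-B ratio was thus as high in hy5 as in WT, at log2 ratios of 7.95 and 7.77, unlike that of its neighbour. Reads may be shared with the near-identical PSBS1. The neighbour with the next highest WT ratio was Cre01.g016300, beside Cre01.g016350, with log2 UV-B ratios of -0.39 in hy5 and 0.83 in WT.

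None of the 124 genes found from 15 lists (UV-B signalling, photoprotection, photoreceptors, carotenoid and tetrapyrrole synthesis, photosystem II repair, light harvesting, carbon fixation and others) was among the 12 genes. The lists cover few genes, 124 of the 14621 counted and 7 of the 362 moderate ones, so nothing is read from their absence among the 12. Those 7 all had hy5 ratios of 0.773 to 1.52 times that of WT. Among them are aCRY, an animal-like cryptochrome photoreceptor, with a log2 UV-B ratio of 1.25 in hy5, against 1.49 in WT, and PSY1, phytoene synthase at the entry to carotenoid synthesis, with 0.94 in hy5, against 1.22 in WT. CVDE1, the violaxanthin de-epoxidase of the xanthophyll cycle, had 2.03 in hy5, against 1.77 in WT, and PGR5, a protein of cyclic electron flow around photosystem I, had 2.11 in hy5, against 1.76 in WT. The near-identical light-stress proteins LHCSR3A and LHCSR3B had 1.95 and 2.06 in hy5, against 1.32 and 1.36 in WT, and CAH3, the thylakoid lumen carbonic anhydrase, had 1.29 in hy5, against 1.11 in WT. For the strong genes, 6 of 175 had a hy5 ratio of at most 0.4 times that of WT, HY5 itself among them, where the insertion bears on the measured gene. Of the UV-B signalling list, 3 of 5 genes were called upward with UV-B in co (edgeR's quasi-likelihood test over all genes), where 225 of 13613 genes in all were. In uvr8 0 of 5 were called, but there 0 of all genes were called, so nothing is read from that count.

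Counts of the 12 genes in a library ranged from 13 to 28511, and 8 of the 12 had a WT mean with UV-B under 20 CPM. The standard errors did not follow the level: the UV-B effect in co had an SE of 0.51 for Cre13.g579450, with a WT mean of 578 CPM with UV-B, and of 0.21 for Cre11.g467620, with 5.88 CPM.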

How the data were processed

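The deposited table holds unnormalized whole-number read counts of 14621 genes in 24 libraries. The submitters' processing notes name edgeR 3.42.4, HTSeq 0.11.3, STAR 2.7.10b and bcl2fastq 2.20.0 without their roles. The sources used here give neither the strand setting nor how reads with several matches were treated, so reads of overlapping or near-identical genes may be misassigned. The labels' titles give group and replicate number. The 12 genes, the comparison sets and the gene lists were chosen with earlier results of these data known. Genes named are the members, the genes just outside each threshold, the mutated genes, and list genes among the other moderate genes. PSBS2 and Cre01.g016300 were named after their values were seen.

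Raw counts gave CPM by library total. For the tests, filterByExpr by group (minimum count 10 and minimum total 15) left 13613 genes, all 12 members included, and 126 of the genes removed were at 0 throughout. Counts were scaled by TMM, and all 24 libraries entered 1 fit of 8 group means with edgeR 4.0.16, limma 3.58.1 and R 4.3.3, with DESeq2 1.42.0 as an alternative. The SE of a log2 change is its size over the square root of F. Scripts were tested on simulated counts. Replicate numbers come from the titles, and they counted as paired where the deviations from group means correlated over 0.1 for all 3 numbers: co against uvr8 with UV-B gave 0.76, 0.656 and 0.406, and without UV-B 0.662, 0.677 and 0.208. No sequences are shown, since none was used here.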

Additional observations from a re-analysis of the deposited data

How the results depend on the processing

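The count of called members in the UV-B effect in co, the UV-B effect in uvr8 and the difference of both effects stayed 0 with DESeq2 size factors, the DESeq2 test, no count filter, only the libraries compared and the replicate block, which called 468 of all genes in co and 0 in uvr8. Replicate numbers did not pair libraries there (correlations of 0.0952, 0.566 and -0.249 in co, and 0.0942, 0.662 and -0.164 in uvr8). Leaving out all libraries of 1 replicate number gave 0 to 1 called members in co and 0 to 1 in uvr8. Without number 1 these were Cre13.g568000 in co at 1.395 (adjusted p = 0.0338, edgeR) and Cre10.g443500 in uvr8. For co against uvr8 with UV-B, where 1 was called, DESeq2 and the replicate block gave 2 (1079 and 1672 of all genes). Only the libraries compared gave 0 (190 of all genes), and leaving out libraries gave 0 to 2. Without UV-B, the replicate block and only the libraries compared gave 1 in place of 0 (2462 and 550 of all genes). The UV-B changes of the members in co kept their sign in 159 of 168 alternatives. The number of genes meeting the rule was 34 with TMM-scaled CPM (11 of the 12 kept), 20 with a hy5 threshold of 0.5, and 29 with the no-overlap criterion dropped. It ranged from 8 to 74 without 1 library or number, and the 74 came without the first WT library with UV-B, with 9 of the 12 kept. It was 43 without the second WT library without UV-B (8 kept), 22 without the second WT library with UV-B (8 kept), and 30, 54 and 19 without numbers 1, 2 and 3. In an alternative added after seeing the data, the 12 genes were kept as chosen from all libraries. There the count of members with hy5 below WT with UV-B was 5 to 10 with libraries left out, the 5 without the third WT library with UV-B. The counts for the side without UV-B stayed within 1.5 times, which does not check the choice of the genes. The cause of these shifts was not tested. Depth alone was not tested as a limit.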
